A study of Mus musculus with 6 samples.

Results

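The genes described here make sterols and fatty acids or regulate that synthesis. They were measured in the lens of adult mice that carried either normal Fgf9 or, on both copies, the Y162C change in fibroblast growth factor 9. The 34 genes were chosen by name from textbook pathways. Every array probe whose platform annotation gives one of these names as its only symbol was taken. Such probes existed for 31 of the 34, out of 16593 genes named in this way on the array. These 31 genes had 44 of its 25697 probes. Acat2, Mvk and Fdft1 were not analysed here. Msmo1, once called Sc4mol, counts as 1 gene. The genes were placed in 3 lists: sterol synthesis (15 genes with a probe), sterol regulation (6) and fatty acid synthesis (10).

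The wild-type group held 3 mice and the homozygous group 3, all of strain C57BL/6J and 18 weeks old, with 1 lens RNA sample and 1 Illumina BeadChip array per mouse. By the labels, 1 of the wild-type mice and 2 of the homozygous mice were female. The mutation is present in the whole animal, so a difference in the lens need not start in lens cells. In whole-lens RNA, fewer cells of a type and less RNA per cell cannot be told apart.

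Cholesterol is built from acetyl units by a chain of enzymes that first makes mevalonate, then the linear hydrocarbon squalene, then ringed sterols. SREBP proteins, encoded by Srebf1 and Srebf2, switch on the genes of this chain and of fatty acid synthesis when sterols run low. Scap escorts SREBP to the site where it is activated, and the Insig proteins hold Scap back when sterols are plentiful. The plasma membrane of lens fibre cells is unusually rich in cholesterol, and loss of lanosterol synthase, encoded by Lss, causes cataract in humans and rats.

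Promoter sequences were available from RefSeq (GRCm38.p6) for 25 of the 31 genes. Fdps, Sqle, Stard4, Scd1, Scd2 and Fads1 had no match. The window read was the 250 bases before each annotated start, and a gene with several starts has several windows. CCAAT on either strand, the sequence bound by NF-Y, a factor that works beside SREBP, was present for 13 of 13 sterol synthesis genes, in 81.2% of their 16 windows. It was present in 33.8% of all 32851 windows and in 36.3% of the windows of genes tested on these arrays. In 12 of the 13 genes a CCAAT lay within 100 bases of a start, against 26.6% of the 5287 tested genes with a window. Pmvk was the exception, with its box 136 bases before the start. The regulators had CCAAT in 50% of 10 windows and the fatty acid genes in 37.5% of 8. GGGCGG, the GC box bound by Sp1, was in 81.2% of sterol synthesis windows, 70.6% of the windows of all members and 57.2% of those of tested genes. CACGTG, the E-box, was in 17.6% of the members' windows and in 8.92% of those of tested genes. TCACNCCAC, a common form of the sterol regulatory element that SREBP binds, was found on either strand in 1 of the members' 34 windows, that of Hmgcs1, and in 1.05% of all windows. No motif overlap was removed, and a match of letters is not evidence of binding. The windows below are shown because these 5 genes carry the main values that follow. They include an early enzyme of the chain and the pair of sterol synthesis genes with the largest positive differences. The others are a regulator read by several probes and the sterol SREBP gene. Hmgcs1 lies at chr13:119690101-119690350 (plus strand), Mvd at chr8:122443423-122443672 (minus), Hsd17b7 at chr1:169969206-169969455 (minus), Insig1 at chr5:28071162-28071411 (plus) and Srebf2 at chr15:82147019-82147268 (plus). Capitals mark CCAAT or its reverse complement ATTGG and, in Hmgcs1, the TCACNCCAC match.
Hmgcs1: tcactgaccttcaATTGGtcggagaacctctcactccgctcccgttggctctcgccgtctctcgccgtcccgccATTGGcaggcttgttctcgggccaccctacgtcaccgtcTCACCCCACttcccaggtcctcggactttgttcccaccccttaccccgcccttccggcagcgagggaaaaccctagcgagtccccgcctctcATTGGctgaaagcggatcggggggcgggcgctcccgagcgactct
Mvd: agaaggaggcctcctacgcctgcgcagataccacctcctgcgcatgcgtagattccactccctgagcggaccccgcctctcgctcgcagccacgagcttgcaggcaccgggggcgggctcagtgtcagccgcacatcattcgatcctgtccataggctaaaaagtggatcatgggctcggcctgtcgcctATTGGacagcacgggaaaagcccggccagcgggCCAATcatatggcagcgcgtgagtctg
Hsd17b7: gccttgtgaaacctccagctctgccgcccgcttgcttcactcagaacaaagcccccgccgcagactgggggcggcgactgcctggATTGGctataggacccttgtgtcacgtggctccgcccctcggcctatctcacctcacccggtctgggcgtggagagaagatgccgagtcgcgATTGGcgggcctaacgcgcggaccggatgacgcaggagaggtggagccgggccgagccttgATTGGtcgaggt
Insig1: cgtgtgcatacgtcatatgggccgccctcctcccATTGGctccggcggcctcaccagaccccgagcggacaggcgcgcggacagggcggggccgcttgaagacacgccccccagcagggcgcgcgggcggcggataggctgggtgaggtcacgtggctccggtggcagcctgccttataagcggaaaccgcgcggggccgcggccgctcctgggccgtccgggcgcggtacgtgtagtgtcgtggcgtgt
Srebf2: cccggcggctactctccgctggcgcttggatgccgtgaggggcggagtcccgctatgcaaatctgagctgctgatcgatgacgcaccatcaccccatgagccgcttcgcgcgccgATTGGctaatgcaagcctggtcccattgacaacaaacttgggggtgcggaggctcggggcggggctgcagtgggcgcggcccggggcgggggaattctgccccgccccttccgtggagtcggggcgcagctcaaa
In Hmgcs1 the capitals fall in 4 places, 3 of them CCAAT boxes. Hsd17b7 also has 3 boxes and Mvd 2, while Insig1 and Srebf2 have 1 each, farther from the start (216 and 135 bases).

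Array quality was checked before the genes were compared. Mean signal was 191 to 200.4 on the wild-type arrays and 161.6 to 165.7 on the homozygous arrays, and 8713 to 9671 against 7816 to 8396 probes were above background (detection p under 0.05). Before normalization the median tested gene was lower in the homozygotes by 0.36 on the log2 scale (difference -0.36). Quantile normalization, which gives every array the same distribution, removes that shift, so the values below are relative to all probes. Fgf9 itself was above background on 0 of 6 arrays, and its probe cannot check a single amino acid substitution. Of 10 lens fibre marker genes on the array, 9 were above background on every array. Wild-type array 2 stood apart through markers of other eye tissues: the summed signal of 13 photoreceptor genes was 17387 on it and 3276 to 5412 on the other 5. Wild-type array 3 is labelled male, but both Xist probes were above background on it and the probes of the Y-linked genes Eif2s3y and Kdm5d were not.

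None of the tested sterol or fatty acid genes passed the test for a change in homozygous lenses. Probes above background on at least 3 arrays were tested, which left 26 of the 31 genes: 11 sterol synthesis genes, 6 regulators and 9 fatty acid genes. By the brightest tested probe of each gene, 0 of these passed limma's test at an adjusted p under 0.05, and 0 had an unadjusted p under 0.05. Among all 6430 tested genes 28 changed, 0.435%, and 9.14% had an unadjusted p under 0.05. The smallest limma adjusted p among these 26 brightest probes was 0.58, for Sqle. A dimmer Elovl1 probe had a lower one, 0.38, at an unadjusted limma p of 0.012. Log2 fold changes (homozygous minus wild type, each gene represented by its brightest tested probe) ran from -0.39 for Srebf1 to 0.35 for Mvd. Their median was -0.03, with 12 above 0 and 14 below. Over all tested genes the median was -7.3e-05, and 50% lay above 0. The median size of the change, without its sign, was 0.17 for the members and 0.15 for all tested genes.

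**Figure D1:**
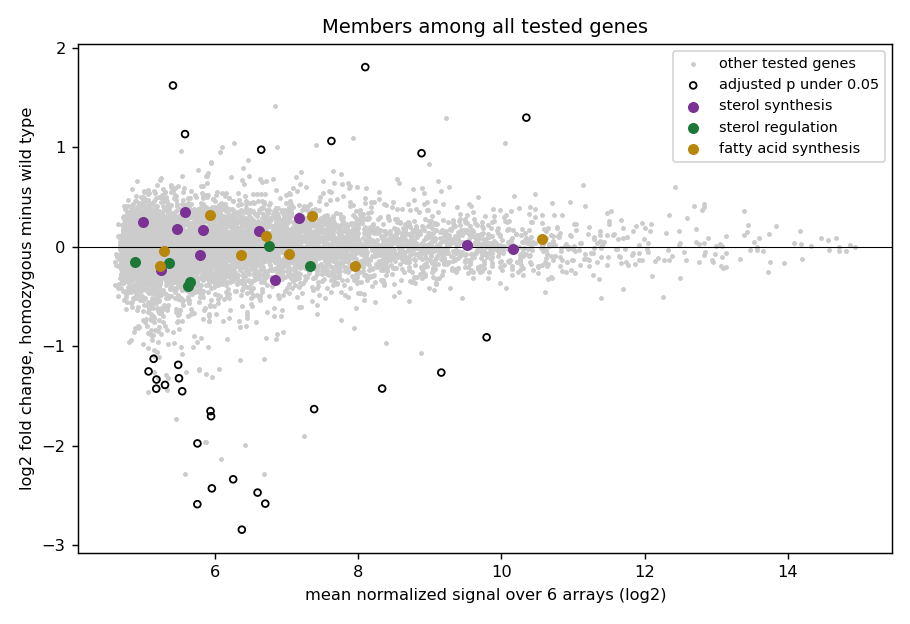
Each point is 1 tested gene, with its mean normalized log2 signal over 6 arrays on the x axis and its log2 fold change (homozygous minus wild type) on the y axis. Coloured points are the 26 members by list, all between -0.39 and 0.35; black rings are the 28 genes at a limma adjusted p under 0.05, 7 above and 21 below 0.

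The intervals bound the change in normalized signal, relative to all probes and after the offset of 16. That offset makes changes of dim probes smaller, so the change in transcript level could be larger than these bounds. Of the members, 2 had a mean log2 signal up to 5.15 and 11 more had one up to 5.96. A shift shared by most genes, which normalization removes, is not covered by the intervals. The 95% limma interval lay inside a 2-fold change in either direction for 26 of 26 members, and for 94.8% of all tested genes. It lay inside a 1.5-fold change for 10 of 26 members, or 38.5%, against 58.9% of all tested genes. These are intervals for single genes, not adjusted for their number. The narrowest intervals among the members were those of 3 genes. For Hmgcs1 the interval ran from 0.84-fold to 1.16-fold, for Fads1 from 0.88-fold to 1.26-fold and for Fdps from 0.82-fold to 1.24-fold. Scd2 had the highest upper bound, 1.98-fold, and Srebf1 the lowest lower bound, 0.52-fold.

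**Figure D2:**
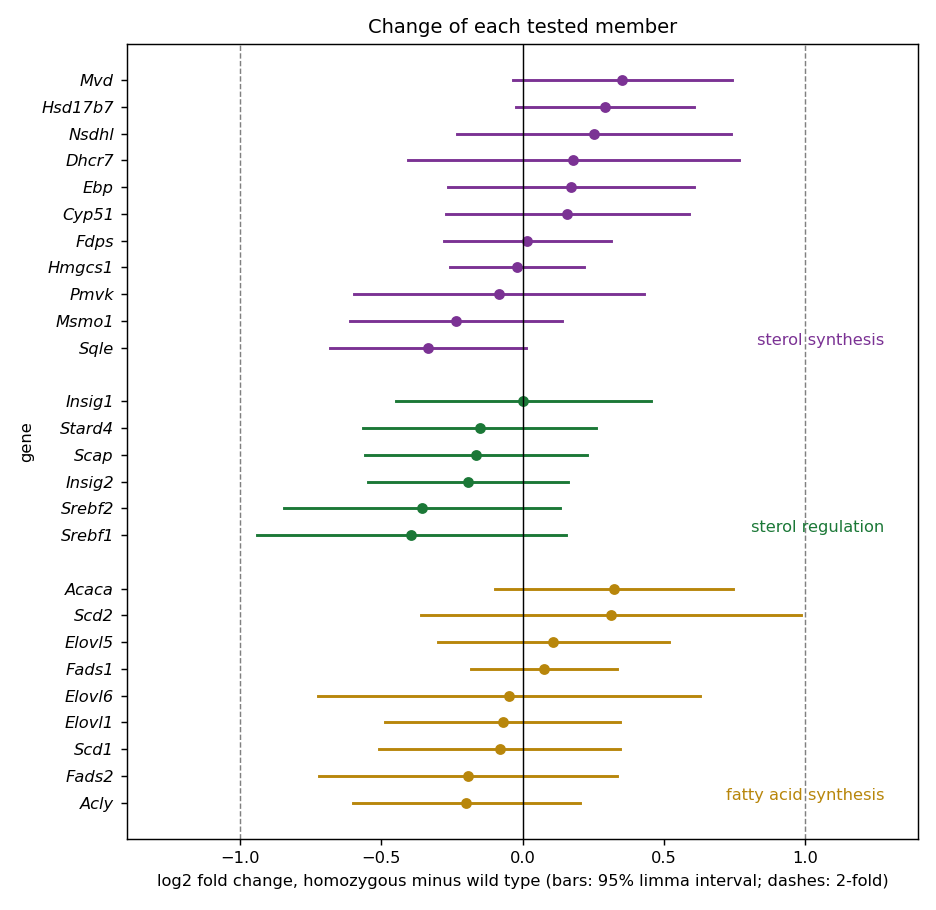
Each row is 1 tested member, with a dot at its log2 fold change (homozygous minus wild type) and a bar for its 95% limma interval; dashed lines mark a 2-fold change either way. All 26 bars cross 0 and all stay between the dashed lines, the highest upper end being 1.98-fold for Scd2.

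In sterol synthesis, 7 of 11 tested genes had a log2 fold change above 0 and 4 below, with a median of 0.16. With 13 tested probes counted in place of 11 genes, the median was 0.02. Without wild-type array 1 or 2 it was 0.0051 or 0.06, and without wild-type array 3 it was 0.21. Hmgcs1, the synthase that makes the HMG-CoA from which mevalonate is formed, did not separate the groups. Its normalized log2 signal was 10.23, 10.06 and 10.23 on wild-type arrays 1 to 3 and 10.22, 10.08 and 10.15 on homozygous arrays 1 to 3. The groups overlapped almost completely, with a log2 fold change of -0.02 (SE 0.11, n = 3 per group, limma adjusted p = 0.97). The deposited signal of the same probe was 1357 to 1468 in the wild type and 996 to 1029 in the homozygotes, a separation that normalization against all probes removed: the unnormalized log2 difference of -0.52 stood beside a median of -0.45 for the 308 tested genes of similar or greater brightness (mean log2 above 10).

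Fdps, which joins isoprene units into farnesyl pyrophosphate, was at 9.28, 9.62 and 9.62 in the wild type and 9.60, 9.62 and 9.35 in the homozygotes. Each group had 1 low array and a pair of nearly equal higher ones, and the log2 fold change was 0.02 (SE 0.14). Pmvk, the kinase of the second mevalonate phosphorylation, spread over 0.85 log2 units within the wild type alone and had a log2 fold change of -0.08.

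Mvd, the decarboxylase that ends the mevalonate segment, had the largest difference above 0. Its log2 signal was 5.24, 5.42 and 5.57 in the wild type and 5.86, 5.71 and 5.71 in the homozygotes. All homozygous values lay above all wild-type values, by a log2 fold change of 0.35 (SE 0.18, limma adjusted p = 0.60). Hsd17b7, a sterol ketone reductase of the later chain, was at 7.13, 6.93 and 7.01 against 7.36, 7.27 and 7.32. It too did not overlap, and its log2 fold change was 0.29 (SE 0.14, limma adjusted p = 0.59).

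Sqle, the epoxidase that adds oxygen to squalene and a rate-limiting step, went the other way. Its brighter probe read 6.90, 7.19 and 6.92 in the wild type and 6.61, 6.63 and 6.77 in the homozygotes, with no overlap and a log2 fold change of -0.33 (SE 0.16, limma adjusted p = 0.58). Its dimmer probe, above background on 4 of 6 arrays, spanned 0.98 log2 units in the wild type and 0.66 in the homozygotes, at a log2 fold change of -0.02. In all, 3 of the 26 tested members had groups that did not overlap, or 11.5%, against 15.1% of all tested genes. The pair above (Mvd and Hsd17b7) compares with 7.42% of all tested genes apart in that direction, and Sqle with 7.64% in the other.

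The other enzymes of the ring-forming and later steps overlapped between the groups. Cyp51, the lanosterol demethylase, had a log2 fold change of 0.16, or -0.03 without wild-type array 2 and 0.29 without wild-type array 1. Msmo1, the methyl oxidase that follows, was at -0.24. Nsdhl, a dehydrogenase in the removal of the same methyl groups, was at 0.25 by its brighter tested probe, above background on 4 of 6 arrays, and at -0.01 by the other. The brighter probe gave 0.06 without wild-type array 2 and 0.47 without homozygous array 3. Ebp, which moves a ring double bond, was at 0.17. Dhcr7, the last reductase before cholesterol, was at 0.18 with its groups in a lopsided pattern: 4.66, 5.78 and 5.72 in the wild type and 5.58, 5.55 and 5.57 in the homozygotes. On wild-type array 1 Dhcr7 was not above background, and without that array the log2 fold change was -0.18. Without wild-type array 2 it was 0.34. Idi1, the isomerase, Lss, the cyclase of squalene epoxide, and Tm7sf2, a sterol reductase, were above background on 0 of 6 arrays, and Sc5d, a desaturase, on 1. Their deposited signals lay between 79.8 and 99.5, and the smallest detection p of the 4 was 0.046, for Sc5d. Lack of signal from 1 probe does not show that the transcript was absent.

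**Figure D3:**
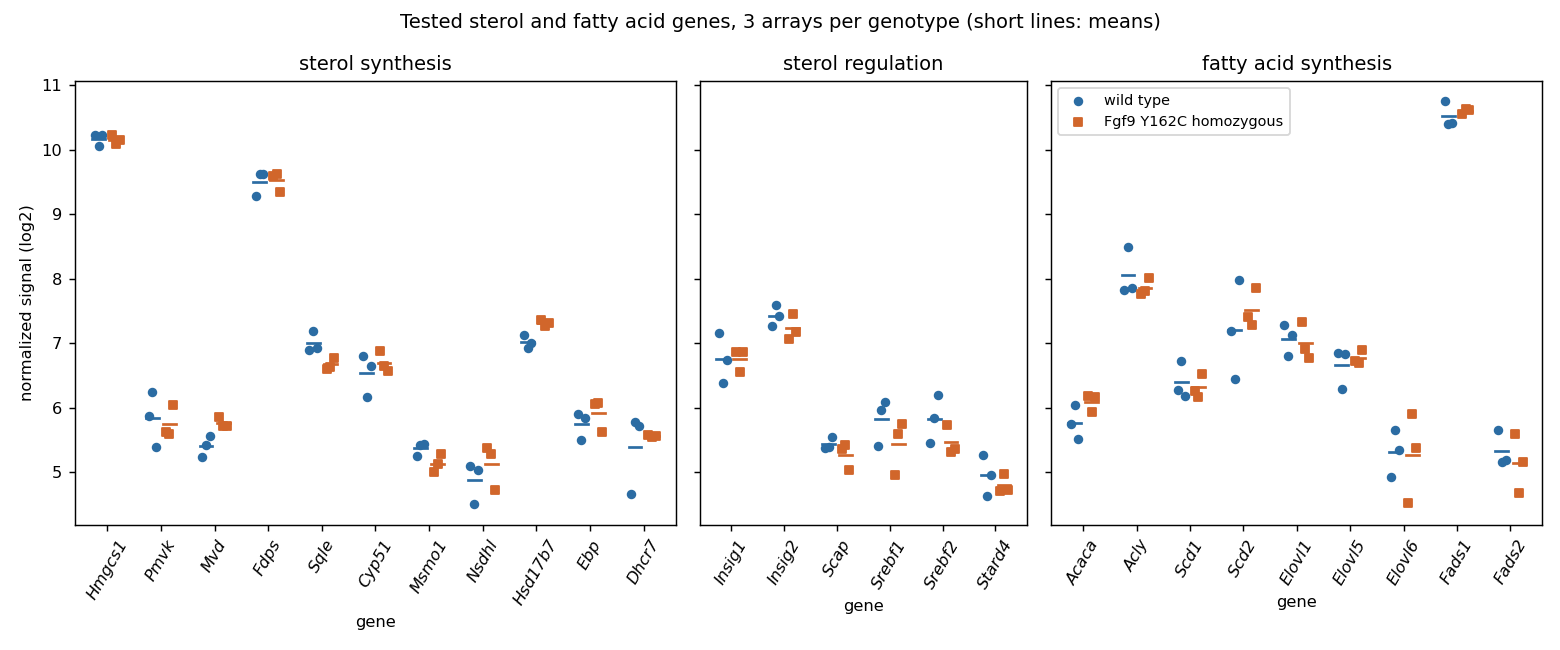
Normalized log2 signal (y axis) of the 26 tested members (x axis), 1 panel per list, with 3 wild-type arrays as circles, 3 homozygous arrays as squares and short lines for the means. Levels of different genes come from different probes and are not comparable; the groups are apart only in Mvd, Sqle and Hsd17b7.

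Among the regulators 0 of 6 passed the test. By the brightest tested probe of each gene, the log2 fold change was negative for 5 of them, while 50% of all tested genes lay above 0. The dimmer tested probes of Insig1 and Insig2 were at 0.33, 0.0001 and 0.05. The median over the 6 genes was -0.18, or -0.24 without wild-type array 2. Srebf2, the SREBP that drives mainly sterol genes, was at 5.45, 5.84 and 6.20 in the wild type and 5.74, 5.32 and 5.36 in the homozygotes. The lowest wild-type array lay below the highest homozygous array, and the log2 fold change was -0.36 (SE 0.22, limma adjusted p = 0.66). Srebf1, which drives mainly fatty acid genes, read 5.42, 5.97 and 6.09 against 4.95, 5.59 and 5.75, also overlapping, at -0.39 (SE 0.25, limma adjusted p = 0.67). Single arrays moved both values: Srebf2 was at -0.17 without wild-type array 3 and -0.54 without wild-type array 1, and Srebf1 at -0.16 without homozygous array 1 and -0.59 without wild-type array 1. Its second probe was above background on 0 arrays. Scap, the escort protein, was at 5.38, 5.39 and 5.54 against 5.36, 5.42 and 5.04, a log2 fold change of -0.16. That value was -0.05 without homozygous array 3 and -0.24 without homozygous array 2. Stard4, a carrier of cholesterol inside the cell, was above background on 3 of 6 arrays and had a log2 fold change of -0.15. Averaged over the 6 genes, wild-type arrays 1 to 3 deviated by 0.06, 0.03 and 0.22 log2 units from the mean of all arrays, and homozygous arrays 1 to 3 by -0.15, -0.05 and -0.11, so every homozygous array was below every wild-type array. This is a description of 6 genes, and no test was made of it.

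Insig1, itself a target of SREBP, spread widely among wild-type mice. Its brightest probe read 7.16, 6.38 and 6.74 in the wild type and 6.87, 6.55 and 6.87 in the homozygotes, a log2 fold change of 0.003 (SE 0.21). The second probe read 7.30, 5.40 and 6.05 against 6.88, 6.34 and 6.52, and the third 6.14, 4.64 and 4.89 against 5.30, 5.27 and 5.10. All 3 tested probes were highest on wild-type array 1 and lowest on wild-type array 2, and the first spanned 0.77 and the second 1.90 log2 units in the wild type. Their log2 fold changes were 0.003, 0.33 and 0.0001, and all homozygous values lay inside the wild-type range. Insig2, the paralogue less dependent on sterols, had a pair of tested probes. The brighter read 7.27, 7.59 and 7.42 in the wild type and 7.07, 7.46 and 7.18 in the homozygotes, overlapping, at a log2 fold change of -0.19 (SE 0.16, limma adjusted p = 0.75). The other read 7.36, 7.02 and 7.01 against 7.31, 7.01 and 7.22, at 0.05, so wild-type array 2 was highest of the 6 by the brighter probe but not by the other.

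**Figure D4:**
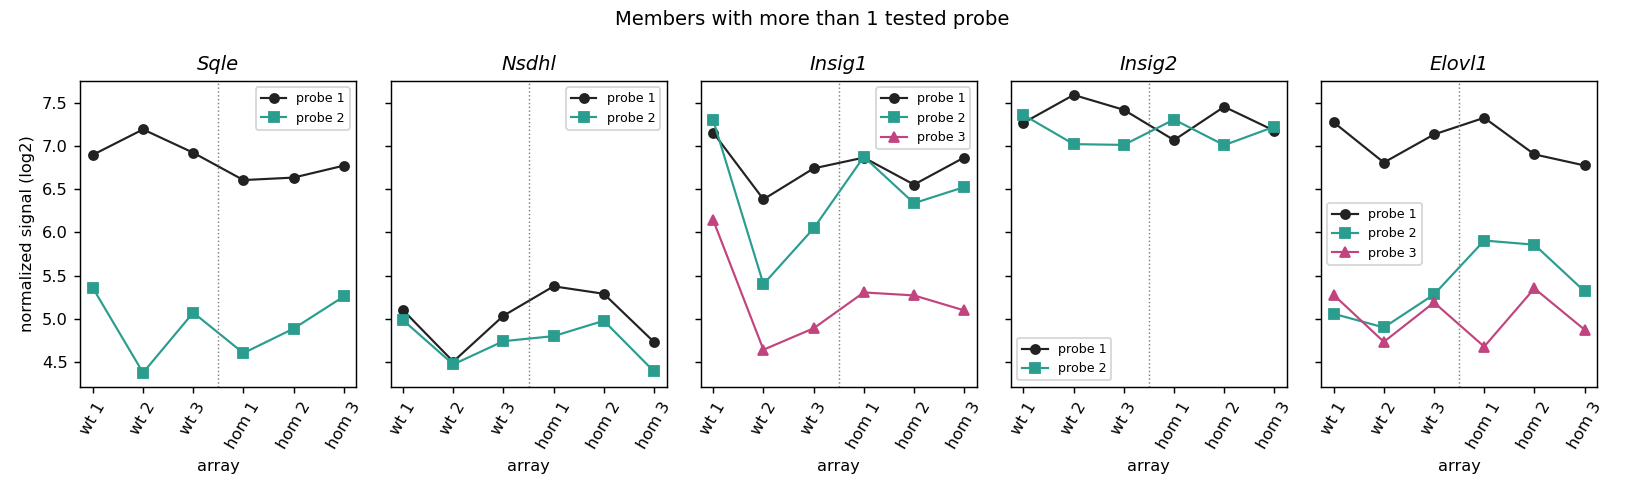
Normalized log2 signal (y axis) on each of the 6 arrays (x axis, wild type left of the dotted line, homozygous right) for the 5 members with more than 1 tested probe, 1 line per probe. The 3 Insig1 probes share a peak on wild-type array 1 and a low point on wild-type array 2, whereas the 3 Elovl1 probes run apart.

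Fatty acid synthesis genes had 4 of 9 log2 fold changes above 0 and 5 below, with a median of -0.05. With each array left out in turn the median ran from -0.028 to 0.099, and it was 0.0088 without wild-type array 2. Acly, which makes the acetyl units that feed both pathways, was at 7.83, 8.49 and 7.86 in the wild type and 7.76, 7.80 and 8.02 in the homozygotes. Its log2 fold change was -0.20 (SE 0.18, limma adjusted p = 0.78), and 0.02 without wild-type array 2, the highest of the 6. Without wild-type array 1 the log2 fold change was -0.31. Acaca, the carboxylase that commits acetyl units to fatty acids, read 5.75, 6.04 and 5.52 against 6.18, 5.94 and 6.16, overlapping on 1 array of each group, at 0.32 (SE 0.19, limma adjusted p = 0.65). Fasn, the synthase itself, was above background on 0 of 6 arrays, with a deposited signal of 80.3 to 90.7.

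Among the desaturases and elongases the groups overlapped in each representative probe. Scd2, a stearoyl desaturase, read 7.18, 6.45 and 7.97 in the wild type and 7.41, 7.29 and 7.85 in the homozygotes. The wild-type arrays spanned 1.52 log2 units and enclosed every homozygous value. Its log2 fold change was 0.31 (SE 0.31, limma adjusted p = 0.79). That value turned to -0.06 without wild-type array 2 and was 0.70 without wild-type array 3. Scd1, a related desaturase, had a log2 fold change of -0.08. Fads1, a desaturase of polyunsaturated fatty acids, read 10.75, 10.40 and 10.42 against 10.55, 10.62 and 10.62, a log2 fold change of 0.08 (SE 0.12). Fads2, which acts before it, was at -0.19. Elovl5, an elongase of polyunsaturated fatty acids, was at 0.11. Elovl6, which lengthens palmitate, spanned 1.38 log2 units within the homozygotes and was at -0.05. It was at 0.34 without homozygous array 1 and at -0.37 without homozygous array 2.

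Elovl1, an elongase of very long saturated chains, gave different answers by probe. The brightest probe read 7.28, 6.81 and 7.13 in the wild type and 7.33, 6.90 and 6.78 in the homozygotes, a log2 fold change of -0.07. The second read 5.06, 4.90 and 5.28 against 5.91, 5.86 and 5.32, with no overlap. Its log2 fold change was 0.61 (SE 0.21, limma unadjusted p = 0.012, limma adjusted p = 0.38). The third gave -0.10 and overlapped. This second probe had the largest log2 fold change of the members' 33 tested probes, but the other Elovl1 probes did not share it. What part of the transcript each probe reads was not used here.

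The spread within each genotype was compared next. The SD was larger in the wild type than in the homozygotes for 17 of 26 members, or 65.4%, against 57.3% of all tested genes. The members' median SD was 0.29 in the wild type and 0.17 in the homozygotes. For all tested genes these medians were 0.19 and 0.17. The members were not matched to other genes by brightness in this comparison. The change between genotypes was smaller than the wild-type range for 22 of 26 members, or 84.6%, against 83.3% of all tested genes. Wild-type array 2 was the lowest of the 6 for 10 members, or 38.5%, against 22.4% of all tested genes. It was the highest for 7, or 26.9%, against 22.1%. The 10 were Hmgcs1, Cyp51, Nsdhl, Hsd17b7, Ebp, Insig1, Stard4, Scd2, Elovl5 and Fads1, and the 7 were Pmvk, Fdps, Sqle, Dhcr7, Insig2, Acly and Scd1. Without this array 0 of 26 members passed, 32 genes passed in all, and 8 members changed sign: Pmvk, Cyp51, Insig1, Acly, Scd1, Scd2, Elovl5 and Elovl6.

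Summed marker signals of other tissues and of the lens were compared on the same arrays. The sums are of deposited signal, not normalized and with background included, and mean signal was lower on the homozygous arrays. Lens fibre genes also had a lower sum, 153065 to 161133 in the homozygotes against 166387 to 189942 in the wild type. After normalization the median log2 fold change of the 9 tested fibre genes was 0.06. A lower sum alone thus does not show less of a cell type. Of 13 photoreceptor genes on the array 10 to 12 were above background in the wild type and 9 or 10 in the homozygotes, with summed signals of 4078 to 17387 and 3276 to 5412. Inner retina and glia genes had 5 to 8 of 11 above background against 2 of 11, at 1467 to 2061 and 1068 to 1180. Pigment cell genes had 7 or 8 of 9 against 3 to 5 of 9, at 1856 to 4120 and 1457 to 1665. Macrophage genes had 5 to 7 of 9 against 2 of 9, at 1433 to 1586 and 1211 to 1306. After normalization the median log2 fold change was -0.52 for 11 tested photoreceptor genes and -1.44 for 5 inner retina and glia genes. It was -0.81 for 7 pigment cell genes and -0.61 for 5 macrophage genes, each with 1 gene above 0. At a limma adjusted p under 0.05, 4 inner retina and glia genes and 1 macrophage gene were lower. Among photoreceptor and pigment cell genes 0 changed, against 0.435% of all tested genes. Lens epithelium genes had 3 of 5 above background in the wild type and 3 or 4 of 5 in the homozygotes, with the higher summed signal in the homozygotes, 2935 to 3505 against 4036 to 4261. Among them Aqp1, a water channel, rose by 1.30 on the log2 scale (limma adjusted p = 0.0034). Corneal epithelium genes had 1 or 2 of 4 above background against 1 of 4, at 3465 to 4409 and 2135 to 2324. Blood genes had 1 of 2 against 0 or 1 of 2, at 285.9 to 571.8 and 161.6 to 274.6, and Hba-a1, a haemoglobin chain, differed by -2.29 on the log2 scale (limma adjusted p = 0.16). Fat cell markers were near background everywhere: 1 of 6 was above background on each array, and Adipoq, Fabp4 and Plin1 were not tested for lack of signal. Myelin markers had 2 of 5 above background in the wild type and 1 of 5 in the homozygotes, and Mbp, Mag and Mog were likewise not tested. The part of these cell types in the members' values was not tested.

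**Figure D5:**
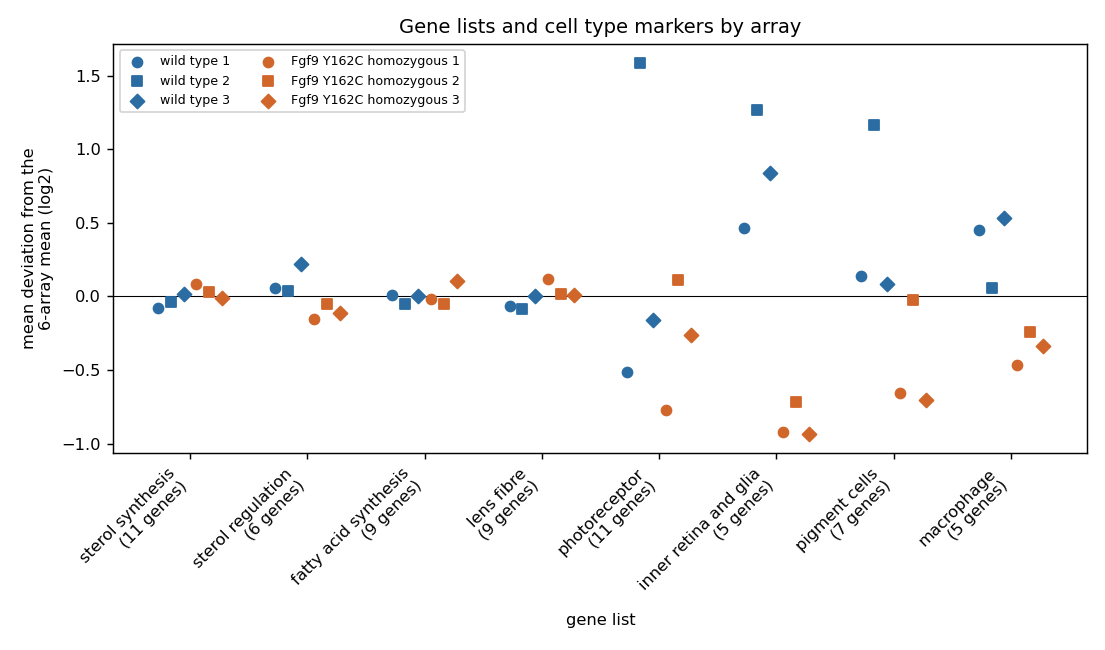
Mean deviation from the 6-array mean (y axis, log2) of the tested genes of each list (x axis), 1 point per array, wild type in blue and homozygous in orange. The 3 member lists stay between -0.15 and 0.22, and photoreceptor markers reach 1.59 on wild-type array 2. The genotypes do not overlap in sterol regulation, inner retina, pigment cell and macrophage genes, which were lower in the homozygotes. They also do not overlap in lens fibre genes, which were slightly higher in the homozygotes.

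Related genes outside the 3 lists were also tested. Of 20 genes of sterol uptake, transport and activation listed, 13 had a probe and 5 were tested, and 0 changed. Vldlr, a lipoprotein receptor, differed by -0.75 on the log2 scale (limma adjusted p = 0.61), with 7.44 on wild-type array 2 and 5.38 to 6.01 on the other arrays. Lbr, which also acts as a sterol reductase, was at 5.32 to 5.44 in the wild type and 4.67 to 5.28 in the homozygotes, without overlap, at -0.34 (limma adjusted p = 0.63). Of the fatty acid activation, elongation and lipid assembly genes, 31 had a probe and 16 were tested, with 0 changed. Acsl3, which activates long-chain fatty acids, stood at -0.51 (limma adjusted p = 0.56), and Fabp5, a fatty acid carrier, at 0.30 (limma adjusted p = 0.59). For both, homozygous and wild-type values overlapped. In this fatty acid set 3 of 16 tested genes did not overlap, 2 higher and 1 lower in the homozygotes. That is 18.8%, against 20% of the 5 sterol genes above and 15.1% of all tested genes.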

How the data were processed

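Lens RNA of 6 mice was hybridized to Illumina BeadChips. Per the file headers, the authors deposited a linear signal intensity per probe, not normalized, beside a detection p-value. A second deposited table holds the authors' processed intensity. The sources used here do not state its method; 28% of its values are below 0, array medians are 4.39 to 4.41, and each array keeps its rank order. The submitters' processing notes name GenomeStudio 2011.1, without a role.

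Here, limma 3.58.1 (R 4.3.3) corrected background by normexp, inferring negative controls from the detection p-values, with an offset of 16, then quantile normalized and took log2. The offset pulls changes of dim probes toward 0. Probes with detection p under 0.05 on at least 3 of 6 arrays were tested (8618 probes, 6430 named genes) by lmFit and eBayes with an intensity trend, two-sided. The Benjamini-Hochberg adjustment ran over every tested probe. A gene is represented by its probe of highest mean. The limma fit and its calls were tested on values simulated at the normalized level. Background correction, normalization and the filter were not tested in that way. The number of arrays limits precision.

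Symbols came from the platform annotation: 23978 probes had exactly 1, and 1719 had none or several. All 31 member symbols matched RefSeq. Members, lists and tests were chosen with earlier results of these data known. Values on every array are given for members whose groups do not overlap and for the 3 largest changes per list; of related genes outside the lists, the 2 of smallest p in each set are named. Array values of Hmgcs1, Fdps, Dhcr7, Insig1, Scap, Elovl1 and Fads1 were added after their values were seen. Alternatives were other background, scaling, filter and variance settings, the processed table, sex, a replicate block and each array left out.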

Additional observations from a re-analysis of the deposited data

How the results depend on the processing

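The count of 0 changed members held in 19 of 20 other settings, with 0 to 4 members at an unadjusted p under 0.05. The exception was median scaling over all probes, where 2 passed, Hmgcs1 and Sqle (log2 fold changes -0.48 and -0.75, limma adjusted p = 0.040 and 0.041). That setting moved the median of all tested genes to -0.32 and called 658 genes, 5 up and 653 down. The list medians there were -0.26, -0.53 and -0.38 for sterol synthesis, regulation and fatty acid synthesis. Scaling over tested probes only, chosen after seeing the data, called 19 genes and 0 members. Sign changes were seen in 51 of 511 member values, and 8 of 26 members kept their sign in all.

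The count of changed genes overall was 18 with an offset of 50, 17 when background was left uncorrected, 6 with probes detected on all 6 arrays, 16 with no trend, 60 with array weights and 17 with labelled sex as a covariate. It was 4 with sex and wild-type array 3 left out, and 0 with the authors' processed values by limma (573 at an unadjusted p under 0.05). It was 9 to 72 with each array left out, 72 without wild-type array 1, 13 without wild-type array 3, 12 without homozygous array 1 and 9 without homozygous array 2 or 3. A replicate block called 102 genes and 0 members (smallest limma adjusted p = 0.51). Same-numbered arrays correlated at 0.20, 0.19 and -0.03 in their deviations, and differently numbered arrays at -0.21 to 0.04. The numbers were not taken as pairs, and whether they mark a shared step was not tested.

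The sterol synthesis median of 0.16 was 0.060 when background was left uncorrected, 0.080 with an offset of 50, 0.079 with no filter, 0.017 with probes detected on all 6 arrays, 0.058 with sex, 0.017 with all tested probes counted, and 0.0051 to 0.21 with each array left out. The regulation median of -0.18 was -0.098 when background was left uncorrected, -0.26 with the processed values, and -0.28 to -0.13 with each array left out. That of fatty acid synthesis was 0.076 with probes detected on all 6 arrays, 0.062 with the processed values, 0.024 with sex, 0.011 with array weights, and -0.028 to 0.099 with each array left out. The cause of these shifts was not tested. For 5 members, signal not above background on enough arrays allowed no test.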
